A study of Mus musculus with 6 samples.

Results

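Nuclear receptors are transcription factors that bind DNA and, in most cases, a small lipid-soluble ligand. A list of 40 nuclear receptor genes was followed through 3 fat depots of mice with and without the histone demethylase gene Kdm4b. For each gene, the probe set with a single symbol and the highest mean log2 signal over the arrays was read, and its other probe sets served as a check. Of the 40 genes, 39 had such a probe set, among 18194 genes on the array, and Nr1h2 was not analysed here. The list was drawn up by gene name, with earlier results of these data known.

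A typical nuclear receptor carries a DNA-binding domain and a ligand-binding domain, and the bound ligand decides whether coactivators or corepressors are recruited to a target gene. Many members of the family bind DNA as a pair with a retinoid X receptor, whereas the steroid receptors pair with themselves and orphan receptors such as the NR4A and ERR proteins act without a known natural ligand. In fat, PPAR gamma drives adipocyte differentiation, PPAR alpha and the oestrogen-related receptors are known for fatty acid oxidation and mitochondrial genes of brown fat, and NR4A genes are known to respond within minutes to adrenergic signals. Coregulators of the family include PGC-1 proteins, which coactivate PPAR and ERR proteins, and histone-modifying enzymes, and KDM4B itself has been studied as a partner of the oestrogen receptor in breast cells.

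The series compared male mice that were wild type (WT) with male mice that lacked Kdm4b in the whole body (KO), to look for transcripts that accompany the obesity of the KO mice. Total RNA came from epididymal, subcutaneous and brown fat at 2 months of age, after 6 hours of fasting, from animals held at room temperature on a chow diet. Each depot and genotype had 1 Affymetrix array, which gives 6 arrays in all, and neither the number of mice behind an array nor a sharing of mice between depots is given in the labels. A difference between KO and WT within a depot is thus a difference between single arrays, given by its size with no p-value. All signals below are MAS5 signals on a linear scale in arbitrary units, and a pair of signals for a depot has the WT array first and the KO array second.

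Signals at or under a floor of 63.2, the level under which the dimmer 40% of probe sets lie, were treated as not measurable, and between 12639 and 13594 genes lay above it on an array. The single Kdm4b probe set read 227 and 188 in epididymal, 272 and 157 in subcutaneous and 135 and 95.2 in brown fat. It was lower in all 3 KO arrays without reaching the floor, and the labels do not give the deleted exons, so the probe set is only a partial check of the genotype. Transcripts of other tissues differed between arrays. The summed signal of 20 skeletal muscle genes was 7778 and 3606 in epididymal fat, 75766 and 90712 in subcutaneous fat and 25109 and 1867 in brown fat, and in the brown KO array 10 of the 20 genes were at the floor, among them the fast myosins Myh1, Myh2 and Myh4. The 11 macrophage genes summed to 48032 and 56029 in epididymal fat, 62543 and 47124 in subcutaneous fat and 11161 and 8830 in brown fat. Brown adipocyte genes, with a summed signal of 191988 and 172168 in brown fat against 16107 to 22162 in the white depots, matched the depot labels.

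Of the 39 receptors, 27 were above the floor on all 6 arrays, 8 on some arrays and 4 on none. The 4 below the floor throughout were Rara, of a retinoic acid receptor, Nr1i3, of a xenobiotic sensor, Esr2, of the second oestrogen receptor, and Nr0b2, of a corepressor-like receptor without a DNA-binding domain. The 8 with part of their arrays above it were Vdr, Rorb, Nr1h4, Hnf4a, Esrrb, Esrrg, Pgr and Nr5a2. In the plot of signals for the 35 measurable genes, the spread between depots of a gene such as Ppara is far wider than the distance between its WT and KO symbols.

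**Figure D1:**
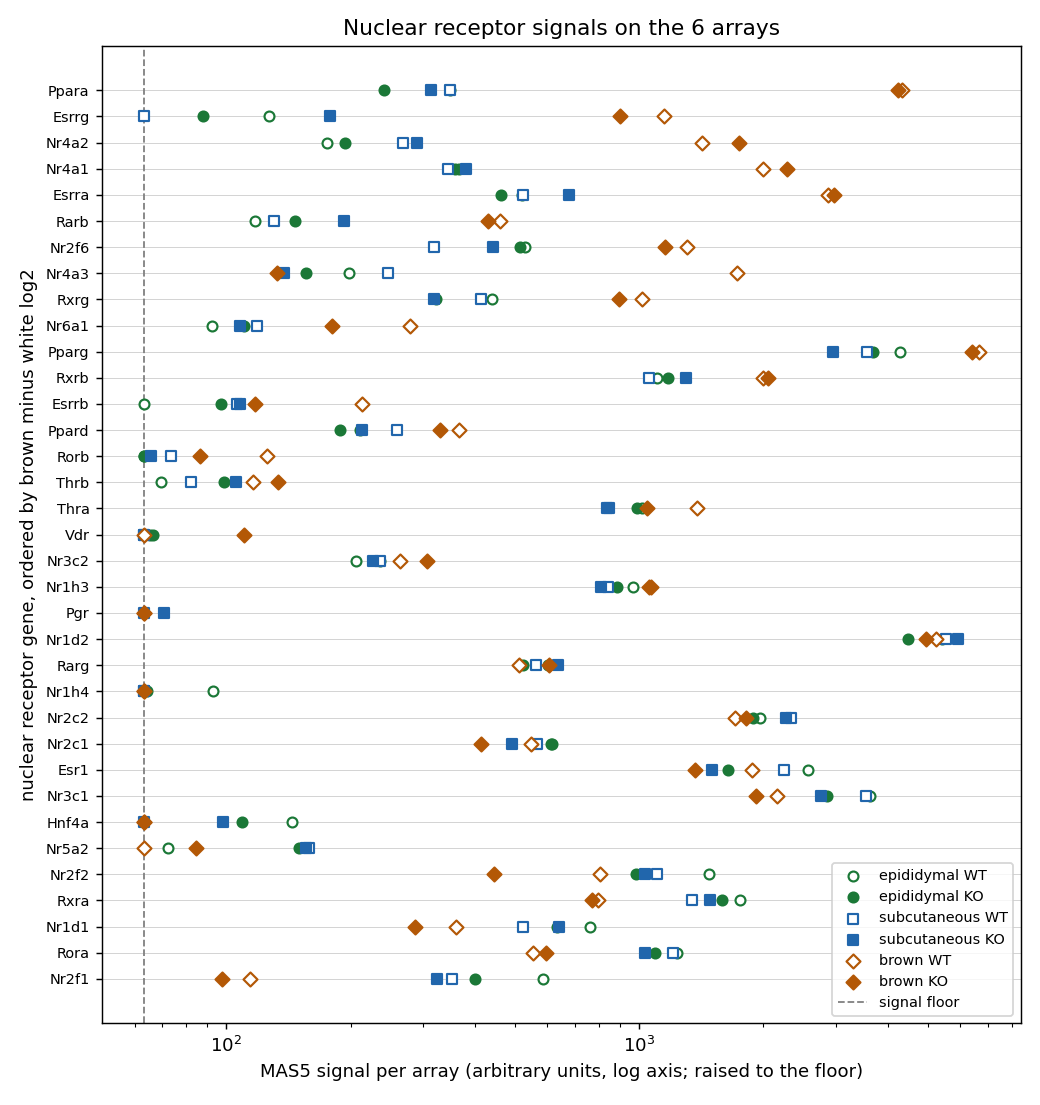
MAS5 signal (log axis, raised to the floor of 63.2) of the 35 nuclear receptor genes that exceeded the floor on any array, 1 symbol per array, with open symbols for WT and filled symbols for KO. Genes are ordered by the brown minus white difference, from Ppara at the top, with brown arrays at 4346 and 4241, to Nr2f1 at the bottom, with brown arrays at 113.9 and 97.6.

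The first question was which receptors mark brown fat. A limma model with terms for depot and genotype was fitted to all 6 arrays. It took in 13233 genes with at least 3 arrays above the floor, and 33 of the receptors were among them. The WT and KO arrays of a depot serve as its replicates here, and p-values therefore reflect how far the genotypes agree on a depot difference and not the spread between mice. Brown fat had higher signals of 14 of the 33 receptors at an adjusted p under 0.05, or 42.4%, against 21.6% of all genes tested. It had lower signals of 7 receptors, or 21.2%, against 31.1% of all genes. The share of receptors higher in brown fat was thus above the share among all genes, and the share lower was under it. With the arrays of both genotypes taken alone, both brown arrays lay above all 4 white arrays for 18 receptors (54.5%, against 26.1% of all genes) and below all 4 for 7 (21.2%, against 33.9%). In whole tissue, fewer cells of a type and less RNA per cell cannot be told apart.

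**Figure D2:**
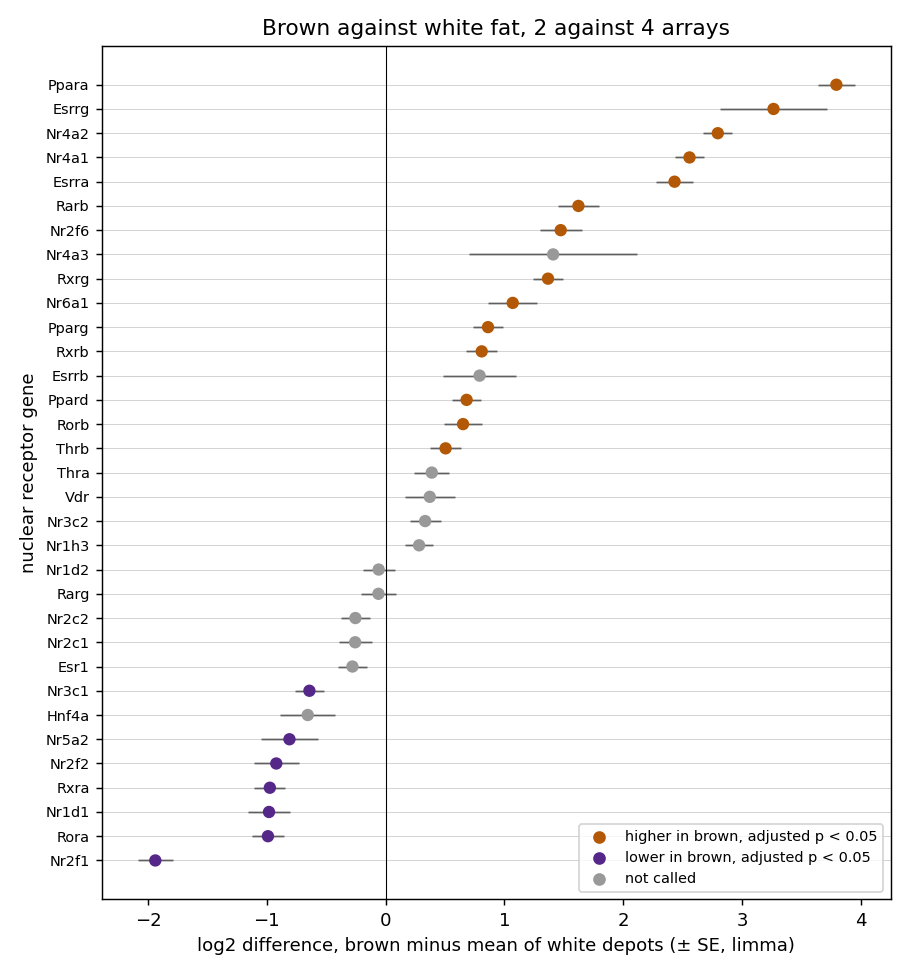
Log2 difference between brown fat and the mean of both white depots for the 33 receptors tested, with the standard error of the limma fit, 2 brown against 4 white arrays. Orange points are the 14 called higher in brown fat, purple points the 7 called lower, and grey points were not called, such as Nr4a3 with its wide error.

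Among the receptors for fatty acids and their partners, 5 of 6 PPAR and RXR genes were higher in brown fat and 1 was lower. Ppara, of the receptor that activates fatty acid oxidation, read 349 and 241 in epididymal, 347.5 and 314 in subcutaneous and 4346 and 4241 in brown fat. Every white array lay at or under 349 and both brown arrays at or above 4241, a difference of 3.79 ± 0.154 on the log2 scale (SE), or 13.9-fold (limma, adjusted p = 0.000436). The 2 other Ppara probe sets also had higher signals in brown fat, by 3.76 and 4.20 on the log2 scale. Pparg, of the master regulator of adipocytes, read 4285 and 3698 in epididymal, 3574 and 2950.5 in subcutaneous and 6653 and 6419 in brown fat. The groups did not overlap, and the difference was 0.86 ± 0.125 (SE), or 1.82-fold (limma, adjusted p = 0.0041). Ppard, of the widely expressed PPAR delta, read 211 and 189 in epididymal, 259 and 213.5 in subcutaneous and 367 and 329 in brown fat, again without overlap, and was 1.60-fold higher in brown fat (limma, adjusted p = 0.00773).

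The RXR genes, whose products pair with PPAR, retinoic acid, thyroid hormone and other receptors, did not share 1 pattern. Rxra read 1756 and 1584 in epididymal, 1347 and 1488 in subcutaneous and 797 and 768 in brown fat, and it was 1.96-fold lower in brown fat (limma, adjusted p = 0.00311). Rxrg, known from muscle and brown fat, was 2.58-fold higher in brown fat (limma, adjusted p = 0.00109), and Rxrb was 1.75-fold higher (limma, adjusted p = 0.00537). Of the 20 muscle genes, 0 were called higher in brown fat, against 21.6% of all genes, and 4 were called lower, against 31.1%. The brown arrays disagreed on these genes, with summed signals of 25109 in WT and 1867 in KO, which widens the error of the fit. These calls therefore cannot show how much muscle signal the brown WT array held. The part of muscle in the Rxrg signal was not tested.

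The genes of PGC-1 alpha and beta, coactivators of PPAR and ERR proteins, were higher in brown fat, as Ppara was. Other coregulator genes were called in both directions or not called. Ppargc1a, of PGC-1 alpha, read 467.5 and 273 in epididymal, 477.5 and 436 in subcutaneous and 4398 and 4097 in brown fat, 10.5-fold higher in brown fat (limma, adjusted p = 0.000438). Ppargc1b, of PGC-1 beta, was 9.65-fold higher (limma, adjusted p = 0.000436). Nrip1, of the corepressor RIP140 that restrains oxidative genes in adipocytes, ran the other way, with a log2 difference of -1.99 (limma, adjusted p = 0.000639). Pprc1, of a related PGC-1 family coactivator, had a difference of -0.78 (limma, adjusted p = 0.00791), and the coactivator genes Ncoa2, Ncoa3 and Crebbp had differences of -0.72, -0.62 and -0.64 and were also called lower. Coregulator genes also called higher were Prdm16, Med1 and Lpin1, with differences of 1.94, 0.41 and 0.47 (limma, adjusted p = 0.000592, 0.0363 and 0.0396). Of 20 coregulator genes tested, 5 were called higher in brown fat, against 21.6% of all genes, and 6 lower, against 31.1%. The list as a whole was thus near the shares of all genes.

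Known target genes were tallied beside their receptors. Of 20 tested target genes of PPAR alpha and delta in fatty acid oxidation, 16 were called higher in brown fat and 2 lower, Cpt1a, of the liver form of carnitine palmitoyltransferase, and Vnn1, of a pantetheinase. Of 16 target genes of PPAR gamma, 8 were called higher and 2 lower, Slc27a1, of a fatty acid transporter, and Hcar1, of the lactate receptor. Each of these shares is above the 21.6% of all genes called higher, and several of these genes also define brown adipocytes, such as Cidea.

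The oestrogen-related receptors, orphan partners of PGC-1 in the control of mitochondrial genes, formed a second group with high brown signals. Esrra read 519 and 464 in epididymal, 522.5 and 678 in subcutaneous and 2876 and 2959 in brown fat, 5.40-fold higher in brown fat (limma, adjusted p = 0.000517). Esrrg read 127 and 87.8 in epididymal, 52.8 and 178.5 in subcutaneous and 1153 and 900.1 in brown fat. The subcutaneous WT array was under the floor and both brown arrays lay above every white array, and the difference was 3.27 ± 0.448 (SE) with a signal raised to the floor (limma, adjusted p = 0.00338). With genes of low signal kept in the fit this call was lost (limma, adjusted p = 0.0682). Both other Esrrg probe sets and the other Esrra probe set also had higher signals in brown fat. Esrrb, the dimmest of the group, was not called (limma, adjusted p = 0.0849). Of 17 target genes of ERR proteins in mitochondria, 15 were called higher in brown fat, against 21.6% of all genes, and 0 lower, against 31.1%. The 2 not called were Cox6a2 and Ckmt2. Their signals differed between arrays along with the muscle list, and the part of muscle in them was not tested.

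The NR4A genes encode orphan receptors that are induced as immediate early genes, by cyclic AMP among other signals. Their promoters are shown because the 3 genes had high signals together in the brown WT array and because all 3 carry the same short motif near the start of transcription. The sequences are the 250 bases before each annotated start in RefSeq (GRCm38.p6), written 5′ to 3′ on the strand of the gene, from chr15:101266596-101266845 on the plus strand for Nr4a1, chr2:57124004-57124253 on the minus strand for Nr4a2 and chr4:48045055-48045304 on the plus strand for Nr4a3. Capitals mark TGACG, the core of the cyclic AMP response element, or CGTCA, the same motif on the opposite strand.
Nr4a1: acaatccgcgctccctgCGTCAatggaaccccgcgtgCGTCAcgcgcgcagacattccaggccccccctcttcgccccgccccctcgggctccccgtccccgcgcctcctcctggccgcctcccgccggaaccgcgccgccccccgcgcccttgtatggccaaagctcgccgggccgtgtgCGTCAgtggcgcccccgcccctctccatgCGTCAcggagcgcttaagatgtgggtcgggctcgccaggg
Nr4a2: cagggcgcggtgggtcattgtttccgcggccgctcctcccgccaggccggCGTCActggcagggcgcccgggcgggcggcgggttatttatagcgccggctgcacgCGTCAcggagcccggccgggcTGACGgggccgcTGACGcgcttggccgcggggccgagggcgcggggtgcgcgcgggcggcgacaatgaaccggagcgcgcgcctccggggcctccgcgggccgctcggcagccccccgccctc
Nr4a3: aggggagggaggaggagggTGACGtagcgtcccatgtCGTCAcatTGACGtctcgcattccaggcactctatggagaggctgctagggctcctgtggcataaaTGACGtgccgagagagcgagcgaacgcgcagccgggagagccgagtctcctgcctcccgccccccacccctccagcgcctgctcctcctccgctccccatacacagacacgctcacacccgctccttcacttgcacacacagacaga

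Each of the 3 windows held 4 matches to TGACG, counted on both strands. Of 32851 promoter windows of the same length, 17.8% held at least 1 match and 0.137%, or 45 windows, held 4 or more, a number chosen after the NR4A windows had been counted. Among 38 receptors with a promoter in the table, 12 held at least 1 match, and the NR4A genes were the 3 with 4 or more. The full palindrome TGACGTCA, which contains TGACG on both strands, was in 1.55% of all windows and in 0 receptor windows. AGGTCA, the core site that many nuclear receptors bind, was in 9 receptor windows and 14.0% of all, and the E-box CACGTG in 5 receptor windows and 6.02% of all. These matches are descriptions of the sequence and show no binding.

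Nr4a1, of Nur77, read 365 and 358 in epididymal, 345 and 381 in subcutaneous and 1995 and 2280.3 in brown fat. Nr4a2, of Nurr1, read 176 and 194 in epididymal, 267.5 and 289.7 in subcutaneous and 1422 and 1742 in brown fat. Both brown arrays of both genes stood far above the 4 white arrays, 5.89-fold for Nr4a1 and 6.94-fold for Nr4a2 (limma, adjusted p = 0.000436 for each). The other Nr4a2 probe sets were also higher in brown fat on average, but by less, with log2 differences of 0.57 to 2.30. The probe set with the smallest difference read 133 and 114 in brown fat, against 138 in the subcutaneous KO array. Nr4a3, of NOR-1, read 198 and 156 in epididymal, 247 and 138 in subcutaneous and 1726 and 133 in brown fat. Only the brown WT array stood out, and the brown KO array was lower than every other array. The Nr4a3 difference between brown and white fat was 2.96 on the log2 scale in the WT arrays and -0.14 in the KO arrays, and the joint value of 1.41 was not called (limma, adjusted p = 0.15). Without the brown KO array it was called (limma, adjusted p = 0.00627).

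Other immediate early genes did not share the brown pattern of the NR4A group. Of 22 tested, 0 were called higher in brown fat, against 21.6% of all genes, and 14 were called lower, against 31.1%. Fos, of the AP-1 subunit, read 604 and 1004 in epididymal, 469 and 516 in subcutaneous and 99.7 and 292 in brown fat, lowest in the brown arrays.

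**Figure D3:**
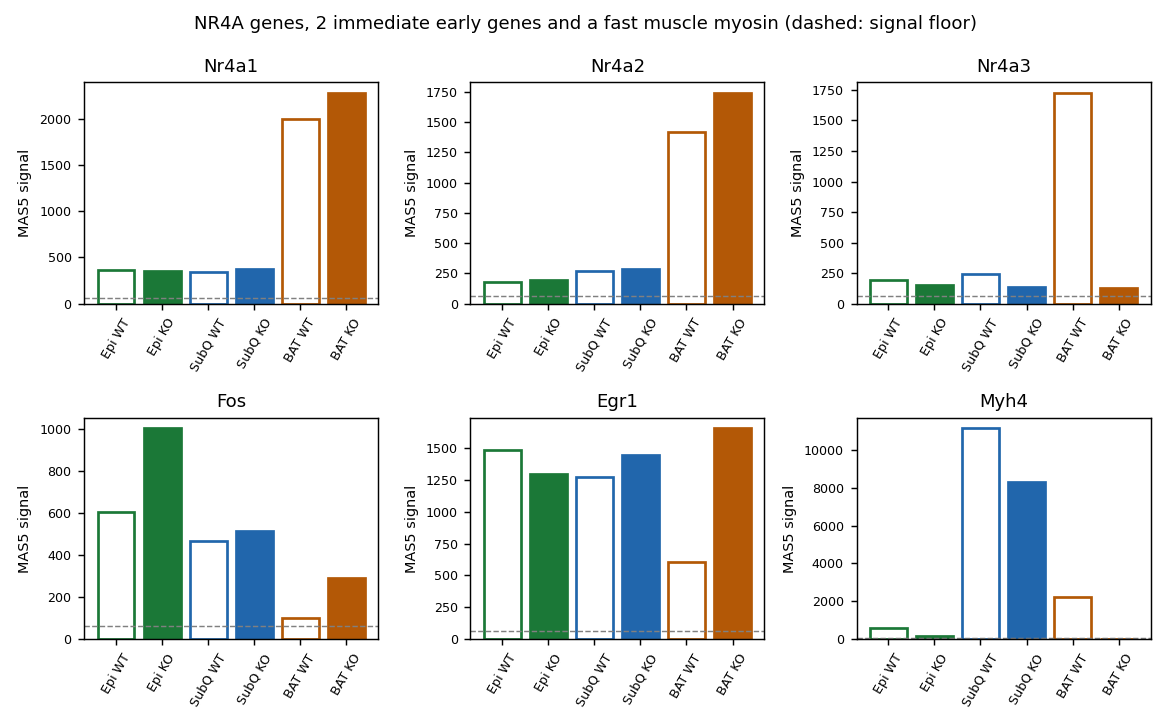
MAS5 signal on each of the 6 arrays for the 3 NR4A genes, the immediate early genes Fos and Egr1 and the fast muscle myosin Myh4, with open bars for WT, filled bars for KO and a dashed line at the floor. Nr4a1 and Nr4a2 are high in both brown arrays and Nr4a3 in the brown WT array alone, whereas Fos and Egr1 are higher in the brown KO than in the brown WT array.

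Receptors for retinoic acid, thyroid hormone and vitamin D gave smaller differences than Ppara, Esrra, Esrrg, Nr4a1 and Nr4a2. Rarb, of a retinoic acid receptor, was 3.08-fold higher in brown fat (limma, adjusted p = 0.00154), with signals of 118 and 147 in epididymal, 131 and 193 in subcutaneous and 459 and 431 in brown fat. Rarg, the other measurable retinoic acid receptor gene, and Thra were not called. Thrb was called at 0.51 on the log2 scale (limma, adjusted p = 0.0259), but the call was kept in only 4 of 13 alternatives and in none of the fits without 1 array. On the ligand side, 6 of 10 tested genes of retinoid handling were called lower in brown fat, against 31.1% of all genes. Among them were Aldh1a1, Aldh1a2 and Aldh1a3, of the enzymes that make retinoic acid. Retsat, of retinol saturase, was the 1 called higher, against 21.6% of all genes. Dio2, of the enzyme that activates thyroid hormone, was 23.4-fold higher in brown fat (limma, adjusted p = 0.000438).

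The remaining receptors higher in brown fat were Nr2f6, of the orphan receptor EAR2, Nr6a1, of the germ cell nuclear factor, and Rorb. Nr2f6 was 2.78-fold and Nr6a1 2.10-fold higher. The Nr6a1 call was kept in 11 of 13 alternatives and the Rorb call in 8 of 13. Without the brown WT array both calls were lost (limma, adjusted p = 0.0585 and 0.133), and without the epididymal WT array that of Rorb was (limma, adjusted p = 0.0693). Among those lower in brown fat, Nr2f1, of COUP-TFI, had the widest difference. It read 584 and 401 in epididymal, 352 and 323 in subcutaneous and 114 and 97.6 in brown fat, 3.83-fold lower in brown fat (limma, adjusted p = 0.00065). Nr2f2, of COUP-TFII, read 1478 and 983 in epididymal, 1103 and 1031 in subcutaneous and 806 and 445 in brown fat, 1.89-fold lower (limma, adjusted p = 0.0124), a call kept in 12 of 14 alternatives. It was lost with genes of low signal kept in the fit and without the brown KO array (limma, adjusted p = 0.0926 and 0.0823). The white signals of both COUP-TF genes lay above the brown signals on all arrays.

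Rora and Nr1d1, of receptors of the circadian clock, were also among those lower in brown fat, whereas the related Rorb was called higher. Rora, an activator of clock genes, read 1237 and 1095 in epididymal, 1207.5 and 1033 in subcutaneous and 552 and 597 in brown fat, 1.99-fold lower in brown fat (limma, adjusted p = 0.00344). Its other probe sets did not all point the same way. Nr1d1, of the repressor REV-ERB alpha, read 761 and 631 in epididymal, 524 and 641 in subcutaneous and 360.2 and 286 in brown fat, 1.97-fold lower (limma, adjusted p = 0.00813), a call lost with genes of low signal kept and without the brown KO array (limma, adjusted p = 0.0697 and 0.0605). Nr1d2, of REV-ERB beta, read between 4495 and 5920.2 on the 6 arrays and was not called. Whether the paralogous repressors differ in their depot pattern was not tested.

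Of the steroid receptors, Nr3c1, of the glucocorticoid receptor, was 1.56-fold lower in brown fat (limma, adjusted p = 0.0104), with probe sets that did not all agree, and the call was lost with its probe sets averaged and without the brown WT array (limma, adjusted p = 0.0641 and 0.0709). Nr3c2, of the mineralocorticoid receptor, and Esr1 were not called. Nr5a2, of LRH-1, was called lower with a signal at or under 159 on every array, and the call was kept in only 5 of 13 alternatives. It was lost without the epididymal KO, the subcutaneous WT or either brown array, at adjusted p-values (limma) of 0.0566 to 0.166. Of the 10 called receptors with a second usable probe set, 8 had all of them on the same side. In brown fat 11 of 11 macrophage, 10 of 11 lymphocyte and 6 of 7 mesothelial genes were called lower than in white fat, against 31.1% of all genes. The part of these cells in the receptors with lower signals was not tested.

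The white depots were then compared with each other. Between subcutaneous and epididymal fat, 0 of 33 receptors were called, against 3.88% of all genes called higher and 1.16% called lower in subcutaneous fat. The smallest adjusted p of a receptor was 0.0938 (limma), for Nr4a2, with a log2 difference of 0.59. Among all genes called, 76.9% were higher in subcutaneous fat on the deposited scale, but 27.1% after each array was centred on its median and 61.9% with quantile normalization, so the balance of this contrast depends on the scaling. After centring, Nr2f1, Nr2f6 and Hnf4a were called lower in subcutaneous fat. The Hnf4a probe set can cross-hybridise with other transcripts, and the other Hnf4a probe sets read 87.8 or less on every array.

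The second question was whether the loss of Kdm4b went with other receptor signals. In epididymal fat the KO array was at least 2-fold above WT for 1 of 33 measured receptors and at least 2-fold under it for 0, against 0.87% and 1.41% of all genes. In subcutaneous fat the counts were 1 and 0 of 33, against 2.2% and 0.722%. In brown fat they were 0 and 1 of 32, against 1.1% and 2.43%. A single receptor is the smallest count above 0, and nothing about the family is read from it. The 3 receptors were different ones, Nr5a2, Esrrg and Nr4a3.

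At 1.5-fold a few more receptors were counted. In epididymal fat Esrrb and Nr5a2 were higher in KO, or 6.06% against 4.37% of all genes, and Nr2f2 and Esr1 lower, or 6.06% against 6.5%. In subcutaneous fat Hnf4a and Esrrg were higher, or 6.06% against 8.71%, and Nr4a3 lower, or 3.03% against 3.74%. In brown fat Vdr was higher, or 3.12% against 4.82%, and Nr2f2, Esrrb, Nr4a3 and Nr6a1 lower, or 12.5% against 8.85%. These shares lay on both sides of those of all genes, each rests on 1 to 4 receptors, and Hnf4a, Esrrg, Vdr and Esrrb had their dimmer array under the floor in a depot counted here. The probe sets of Hnf4a and Esrrb can also cross-hybridise with other transcripts. The error available was the disagreement between probe sets of a gene, an SD of 0.31 to 0.32 on the log2 scale over all genes and 0.29 to 0.38 over the receptors, which leaves out the spread between mice.

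**Figure D4:**
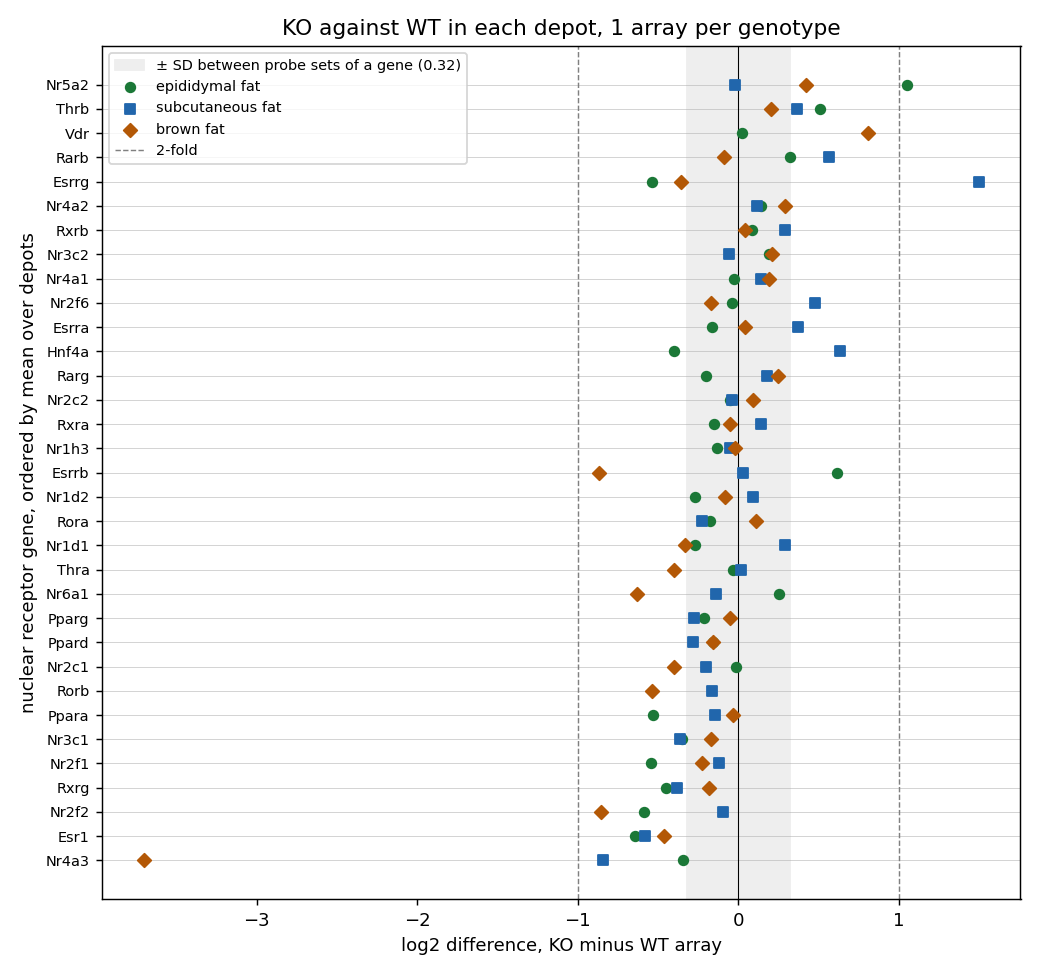
Log2 difference between the KO and the WT array in each depot for the 33 receptors tested by limma, with a grey band of 1 SD between probe sets (0.32) and dashed lines at 2-fold. No point is drawn where both arrays of a depot were at the floor, and the only point beyond 2-fold on the left is Nr4a3 in brown fat.

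In brown fat the KO array had a 13.0-fold lower Nr4a3 signal than the WT array, a log2 difference of -3.70. Nr4a1 and Nr4a2 differed by 0.19 and 0.29 in the same arrays, with the KO array higher. The brown KO array thus had the lowest Nr4a3 signal of all arrays and the highest Nr4a1 and Nr4a2 signals. The Nr4a3 value rests on 1 probe set, since its 2 other probe sets were under the floor on all 6 arrays. The other Nr4a2 probe sets gave other values than the brightest one, with differences of -0.41 to 0.38 in brown fat and of up to 1.56 in subcutaneous fat. In the white depots Nr4a3 was also lower in KO, with differences of -0.35 in epididymal and -0.84 in subcutaneous fat. Other immediate early genes had no shared fall with Nr4a3 in brown fat. The KO array was lower for 5 of 21 measured, against 53.6% of all genes, and higher for 16, at a median difference of 0.31. Among those higher were Fos by 1.55, Egr1 by 1.45 and Dusp1 by 1.19.

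Skeletal muscle transcripts differed in the same brown arrays, at a median of -2.88. There 19 of 20 muscle genes had a KO signal at least 2-fold under that of WT, against 2.43% of all genes. The part of muscle in the brown Nr4a3 difference was not tested. Dio2, the brown fat gene of thyroid hormone activation, differed by -0.997, and the 10 measured brown adipocyte genes had a median of -0.13. The spread between mice in Nr4a3 cannot be seen with 1 array per genotype.

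Nr5a2 was 2.07-fold higher in the epididymal KO array, at 149.9 against 72.3, the latter near the floor. It read 159 and 156 in subcutaneous and 62.1 and 84.6 in brown fat, so the epididymal WT array was low and the KO array close to the subcutaneous ones. With the mean of its probe sets the epididymal difference was 0.26. Esrrg was at least 2.83-fold higher in the subcutaneous KO array, at 178.5 against a WT array under the floor, whereas the epididymal and brown differences were -0.53 and -0.36. A second Esrrg probe set differed in the same direction in subcutaneous fat, by 0.79, and the third was under the floor there. In subcutaneous fat the muscle list had a median of 0.23 and 5 of 20 genes at least 2-fold higher in KO, against 2.2% of all genes. Among them was Myh1 by 4.41, and the part of muscle in Esrrg was not tested.

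Small differences in 1 direction were more frequent than large ones. The median KO minus WT difference of the receptors was -0.16 in epididymal fat, -0.02 in subcutaneous fat and -0.08 in brown fat, against -0.02, 0.04 and -0.03 for all measured genes. In epididymal fat 24 of 33 receptors were lower in KO by any amount, against 53.3% of all genes, in subcutaneous fat 17 of 33 against 45.3% and in brown fat 21 of 32 against 53.6%. After centring each array on its median, the receptor medians were -0.02, -0.15 and 0.05, so that the sign in brown fat turned. That scaling moved the medians of all genes to 0.11, -0.12 and 0.11.

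Of the 30 receptors measurable in all depots, 11 were lower in the KO array of all 3, or 36.7%, against 17.2% of all genes, and 3 were higher in all 3, or 10%, against 16.2%. These counts were not planned and were added after seeing the data. The 11 were Ppara, Ppard, Pparg, Rxrg, Nr1h3, Nr2c1, Nr2f1, Nr2f2, Esr1, Nr3c1 and Nr4a3, and the 3 were Rxrb, Thrb and Nr4a2. After quantile normalization 10 of the 11 were lower in all depots, without Nr2c1. After median centring 7 were, without Ppara, Pparg, Nr1h3 and Nr2c1, against 10.6% of all genes. With all probe sets averaged, Ppara was no longer lower in subcutaneous fat, at 0.12. None of the 30 was at least 1.5-fold lower in all 3 depots, against 0.296% of all genes, or at least 1.5-fold higher, against 0.23%.

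The limma test over depots called 0 of the 33 receptors and 0 of 13233 genes for genotype, and the smallest adjusted p was 0.46 among the receptors. Without adjustment, 3 receptors were lower in KO at p under 0.05, Esr1, Nr2f2 and Rxrg, and 1 was higher, Thrb, or 9.09% and 3.03%, against 4.54% and 3.79% of all genes.

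Esr1, of oestrogen receptor alpha, had the smallest of these p-values and was singled out after its values had been seen. It read 2567 and 1642 in epididymal, 2249 and 1506 in subcutaneous and 1879.8 and 1365 in brown fat. Each KO array was lower than each WT array, whatever the depot. The differences were -0.64, -0.58 and -0.46, with a mean of -0.56 and an SD of 0.092 over 3 depots, and limma gave an unadjusted p of 0.00443 and an adjusted p of 0.46. It ranked 119 of 13233 genes by that p-value, and no alternative setting brought the adjusted p under 0.05, the range being 0.0795 to 0.873. A second, dimmer Esr1 probe set read 446.5 and 366.5 in epididymal, 802 and 342 in subcutaneous and 223 and 221 in brown fat, lower in KO in the white depots and level in brown fat. The probe sets thus shared the direction in the white depots and disagreed on the size.

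**Figure D5:**
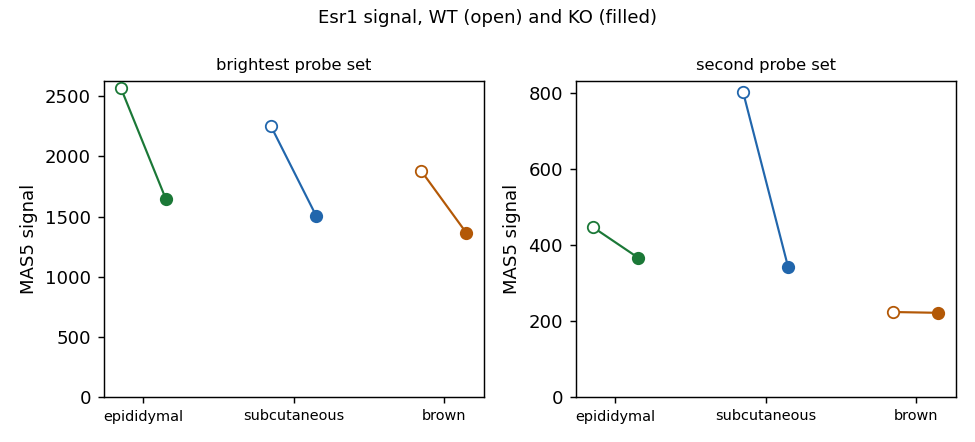
Esr1 signal by depot for the brightest probe set and for the second probe set, with open points for WT and filled points for KO, joined within a depot. On the brightest probe set all 3 KO arrays lie under all 3 WT arrays, and on the second the brown arrays are level at 223 and 221.

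Genes of sex steroid metabolism and response did not move in 1 direction with Esr1. In epididymal fat 4 of 10 measured were higher and 6 lower, against 53.3% of all genes lower. Those lower were 3 of 10 in subcutaneous fat, against 45.3%, and 4 of 9 in brown fat, against 53.6%. Greb1, a classic oestrogen-induced gene, was the only one at least 2-fold different. It read 200.1 in the epididymal WT array and was under the floor in the KO array. Gper1, of a membrane oestrogen receptor, was higher in KO by 0.67, 0.52 and 0.61, and Hsd17b7, of a steroid and cholesterol synthesis enzyme, by 0.79, 0.55 and 0.40 (limma, adjusted p = 0.46 for each).

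The PPAR genes differed little between genotypes. In the order epididymal, subcutaneous and brown, Ppara differed by -0.53, -0.15 and -0.04, Ppard by -0.16, -0.28 and -0.15, and Pparg by -0.21, -0.28 and -0.05. All 9 values were negative on the deposited scale and after quantile normalization, but after median centring the brown values of Ppara and Pparg were 0.10 and 0.09. The mean over depots was -0.24 for Ppara, -0.20 for Ppard and -0.18 for Pparg, with adjusted p-values of 0.667, 0.659 and 0.682 (limma). Only the epididymal Ppara value was wider than the SD between probe sets, and the other Ppara probe sets there differed by -0.83 and -0.32. In subcutaneous fat the other Ppara probe sets differed by -0.30 and 0.81, and the mean of all its probe sets turned the sign there, to 0.12.

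Target genes of PPAR gamma had a median of -0.12, 0.02 and -0.09 in the depots, in the order epididymal, subcutaneous and brown. Within the list, Hcar1 differed by -1.11, -1.08 and -0.99, and Slc27a1 by -0.45, -0.83 and -0.36 (limma, adjusted p = 0.439 and 0.52). Fabp5, of a fatty acid binding protein, was higher in KO in all depots, with differences of 0.20, 0.22 and 0.67 (limma, adjusted p = 0.598). Target genes of PPAR alpha and delta had a median of -0.35, 0.11 and -0.11, with 14 of 20 lower in epididymal fat, against 53.3% of all genes, 8 of 19 in subcutaneous fat, against 45.3%, and 16 of 21 in brown fat, against 53.6%. Vnn1 was lower in all depots, with differences of -0.72, -0.89 and -1.04 (limma, adjusted p = 0.439), whereas Ehhadh, of peroxisomal oxidation, differed by -0.60, -1.15 and 0.29. In epididymal fat the brown adipocyte genes had a median of -0.47 and the muscle genes one of -0.98, in the same direction as the oxidation genes, and their part in these medians was not tested.

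Of 20 coregulator genes, 15 were lower in KO in epididymal fat, against 53.3% of all genes, 16 in subcutaneous fat, against 45.3%, and 9 in brown fat, against 53.6%. Their medians were -0.27, -0.07 and 0.02, and whether these differ from other genes was not tested. Ppargc1a differed by -0.77, -0.13 and -0.10 and Ppargc1b by -0.56, -0.23 and -0.19. Ncoa4, of a coactivator that also serves ferritin turnover, differed by -0.68, -0.43 and -0.19. Of the 20, 0 were called for genotype over the depots.

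For the clock receptors the genotype differences had no shared direction. Rorb, under the floor in epididymal fat, differed by -0.16 in subcutaneous and -0.54 in brown fat. Nr1d1 differed by -0.27, 0.29 and -0.33, Nr1d2 by -0.27, 0.09 and -0.08 and Rora by -0.18, -0.23 and 0.11. Of their partner genes in the clock, 10 of 14 were lower in the epididymal KO array, against 53.3% of all genes, 10 of 13 in the brown one, against 53.6%, and 4 of 15 in the subcutaneous one, against 45.3%. Per3 and Dbp, which follow the clock closely, were lower in all depots, with differences for Per3 of -0.94, -0.33 and -0.20 and for Dbp of -0.79, -0.25 and -0.43 (limma, adjusted p = 0.591 and 0.554). The labels give no time of day for the samples.

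Nr3c1, of the glucocorticoid receptor, differed by -0.35, -0.36 and -0.17 (limma, adjusted p = 0.598), again with probe sets that did not all agree. Its target genes were mixed, with 8 of 16 higher in epididymal, 12 of 16 in subcutaneous and 8 of 15 in brown fat. Those lower numbered 8, 4 and 7, against 53.3%, 45.3% and 53.6% of all genes. Mt2, of a metallothionein, was higher in all 3 by 1.01, 0.76 and 0.49 (limma, adjusted p = 0.46), and Fkbp5, of a chaperone that glucocorticoids induce, differed by -0.38, 0.83 and 0.86.

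The COUP-TF genes encode orphan receptors that often act as repressors. They had lower signals in KO in all depots, with log2 differences for Nr2f1 of -0.54, -0.12 and -0.22 and for Nr2f2 of -0.59, -0.10 and -0.86 (limma, adjusted p = 0.633 and 0.591). Other Nr2f2 probe sets did not share the brown value, so that the mean of its probe sets was -0.26 there. Thrb, of thyroid hormone receptor beta, was higher by 0.51, 0.37 and 0.21 at signals of 134 or less, and Rxrg, of a retinoid X receptor, differed by -0.45, -0.38 and -0.18 (limma, adjusted p = 0.591 for each). LXR alpha, from Nr1h3, differed by -0.13, -0.05 and -0.02, and its target genes had medians within 0.018 of 0 in each depot, while Apoe, of a lipid carrier, read 11439 and 5721 in brown fat. In retinoid handling, Retsat was lower in all 3 depots, with differences of -0.39, -0.39 and -0.64 (limma, adjusted p = 0.522).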

How the data were processed

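The values are probe set intensities of 6 Affymetrix mouse arrays, hybridised with biotin-labelled total RNA. Per the submitters' processing notes, the authors made the deposited intensity values with MAS5 in Affymetrix Expression Console, with versions not given in the sources used here. On every array the mean after trimming 2% at each end was 500.0, a scaling that hides any difference in RNA content per cell, and weak probe sets are noisy because MAS5 treats arrays singly. The 34958 probe sets with a single gene symbol in GEO's platform annotation were used, and 932 with several symbols and 9160 with none were not. Gene identifiers of 34754 were found in a RefSeq table (GRCm38.p6), which changed 0 symbols.

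Signals under 63.2, the 40th percentile of probe sets other than controls (median over arrays), were raised to that floor before log2 was taken. Within a depot, a fold of 2 or more was counted if the brighter array exceeded the floor, and any fold with the dimmer array under it is a lower bound. limma 3.58.1 in R 4.3.3 was fitted to all 6 arrays with terms for depot and genotype, after it had been tested on simulated data. Genes needed at least 3 arrays over the floor, and p-values were adjusted by Benjamini-Hochberg over all 13233 such genes, with a threshold of 0.05. Since each depot and genotype has 1 array, for genotype the depots stand in for replicates. Precision is limited by this number of arrays, and detection calls were not used. Promoter windows came from RefSeq (GRCm38.p6), where Thra and Nr3c1 were not matched. Other steps used Python 3.11.15 and matplotlib 3.10.9, pandas 2.3.3, numpy 2.4.6 and scipy 1.17.1.

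The members, the gene lists, the motifs and the rules were chosen with earlier results of these data known. Signals of every array are given for PPAR and NR4A genes, for receptors past 2-fold in a depot and for the 5 receptors per direction with the largest called difference between depots. Ppargc1a, Ppargc1b, the fast muscle myosins, Kdm4b and up to 4 genes of a list per depot with the largest KO minus WT difference are named too. Esr1, Rarb and list genes named for their brown against white values were chosen after the values were seen. Alternatives were quantile normalization, median centring, the 20th or the 60th percentile as floor, the mean of all probe sets, leaving out cross-hybridising probe sets, thresholds of 1.5-fold and 3-fold, no filter, an intensity trend in limma and leaving out each array.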

Additional observations from a re-analysis of the deposited data

Results flagged for a closer look

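Esrrb, of the oestrogen-related receptor beta, was the only receptor whose KO and WT arrays differed by at least 1.5-fold in opposite directions in 2 depots. Its signals were 51.0 and 96.9 in epididymal, 106 and 108 in subcutaneous and 214 and 117 in brown fat, WT before KO. The log2 difference was 0.62 in epididymal fat, against a WT array under the floor, and -0.86 in brown fat. The difference between the depots was not tested, since each rests on 1 array per genotype. The probe set can cross-hybridise with other transcripts, and both other Esrrb probe sets were above the floor on 1 array, the brown WT array. Without the cross-hybridising probe set the brown difference was -0.42 and the epididymal arrays were under the floor.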

How the results depend on the processing

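The counts of receptors at least 2-fold different between KO and WT depended on the floor and the probe sets. The epididymal count of 1 was 3 with the floor at the 20th percentile and 0 with the floor at the 60th, with the mean of all probe sets or at 3-fold, and it was 4 at 1.5-fold. The subcutaneous count of 1 was 0 with the floor at the 60th percentile, with the mean of all probe sets or at 3-fold, and 3 at 1.5-fold. The brown count of 1 was 3 with the floor at the 20th percentile and 5 at 1.5-fold. The count of 0 between subcutaneous and epididymal fat was 3 after median centring and 1 with the floor at the 60th percentile. The count of 11 receptors lower in all KO arrays was 7 after median centring, an alternative chosen after seeing the data. Leaving out each array gave 0 to 0 calls for genotype, 17 to 21 between brown and white fat and 0 to 0 between the white depots, and the brown count was 15 to 24 under the other settings. The causes of these changes were not tested. Nr4a3 was called between brown and white fat after median centring or without the brown KO array. No result changed its direction while called. The fit has depot as a term and so compares KO with WT within each depot. No further pairing of samples could be added, since the labels give no replicate numbers and each group has 1 array. Weak receptors are the least certain, since 8 of the 39 lay above the floor on only part of the arrays.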
